A study of Homo sapiens with 15 samples.

Results

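The genes described here are 36 genes of glucose metabolism, chosen by name and found in a pair of UMI count tables that together listed 16324 genes. They comprise 20 genes of glucose uptake and glycolysis, 4 of lactate formation and transport, 6 of the pentose phosphate pathway and 6 of glycogen synthesis and breakdown, and all 36 had rows in both tables. The RNA came from immortalized human astrocytes (IHA), fetal astrocytes made to divide indefinitely with SV40 and grown with serum and EGF, profiled by a bulk form of MARS-seq, which counts the 3′ ends of transcripts with unique molecular identifiers (UMIs). Doxycycline at 1 µg/ml induced mutant IDH1, which the series' design text gives as the R132H form. There were 5 libraries after 7 days of doxycycline (1 tagged b1 and 4 tagged b2), 4 after 3 days (all b2) and 6 without doxycycline (3 b1 and 3 b2). The genotype label read WT IDH1 for every library, whether treated or not. The tags b1 and b2 are taken here as batches, though the labels do not say what was done apart. No library had doxycycline without the inducible gene, so the drug and the induced protein cannot be told apart. Nothing in the labels says that replicates came from separate cultures, so the p-values measure the spread between these libraries, which may be technical.

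Glycolysis turns glucose into pyruvate in the cytosol, from uptake through GLUT transporters and trapping by hexokinase to the steps that yield ATP and NADH. Lactate dehydrogenase converts pyruvate and lactate into each other, and the monocarboxylate transporters carry lactate across the plasma membrane. The pentose phosphate pathway branches off at glucose 6-phosphate and supplies NADPH and ribose, and glycogen stores glucose from the same branch point. Astrocytes are the main glycogen-holding cells of the brain and are known for their aerobic glycolysis. The IDH1 enzyme makes NADPH in the cytosol, and its R132H form uses NADPH to make 2-hydroxyglutarate.

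The libraries held 2573290 to 5567651 UMIs in the day 7 table (untreated and day 7, both batches) and 1816599 to 4656705 in the day 3 and day 7 table (b2 only). Levels are given below in CPM, the UMI counts scaled by TMM to a common library total, in the order of the library numbers within a group, and log2 fold changes are from edgeR's robust quasi-likelihood fit over all genes of a table, with their standard errors (SE). A gene was called when its Benjamini-Hochberg adjusted p was under 0.05 over 12449 genes tested in the day 7 table or over 10586 in its counterpart. Of 12 astrocyte markers, VIM, CD44, GJA1 and ALDOC were above 20 CPM in every library of the day 7 table, SOX9 reached 41.9, SLC1A3 lay between 2.37 and 6.07 and S100B between 0 and 1.46, and GFAP, AQP4, SLC1A2, ALDH1L1 and FABP7 had no row among the genes used here. ALDOC is also one of the 36 members. The astrocyte sum, mostly VIM, was 8252 to 10008 in day 7 b2, 7101 to 8315 in untreated b2, 6876 in day 7 b1 and 6698 to 7414 in untreated b1. Of 7 fibroblast markers 5 had rows, none was at 0, and their summed level in the day 7 table was 449 to 654 in day 7 b2, 839 to 885 in untreated b2, 992 in day 7 b1 and 993 to 1073 in untreated b1, so it was lower at day 7 in b2 and lower in untreated b2 than in untreated b1. Single markers ranged widely over that table, with COL1A1 at 179 to 863 CPM, COL1A2 at 66.2 to 337 and THY1 at 35.9 to 280. Near-level sums, as in b1, can thus hold markers that moved in opposite directions. The keratins KRT8 and KRT18 made up nearly all of the sum of genes listed as keratinocyte markers, which was 596 to 644 in day 7 b2, 644 to 677 in untreated b2, 751 in day 7 b1 and 1022 to 1070 in untreated b1. KRT5 had no row and KRT14 lay between 0 and 3.96 CPM, so that sum does not mark keratinocytes. The neural stem cell sum (4 of 5 markers with rows, none at 0) was 129 to 150 in day 7 b2, 172 to 183 in untreated b2, 189 in day 7 b1 and 223 to 238 in untreated b1, lower at day 7 in both batches and lower in b2. The neuron sum (3 of 5 with rows) was 11.5 to 14.7 in day 7 b2, 14.9 to 17.2 in untreated b2, 10.8 in day 7 b1 and 12.1 to 13.97 in untreated b1. The part of these markers in the results was not tested, and in bulk RNA fewer cells of a type and less RNA per cell cannot be told apart. IDH1 itself averaged 35.4 ± 4.59 CPM in day 7 b2 and 31.5 ± 4.57 in untreated b2 (SD, n = 4 and 3), with 43.4 in day 7 b1 and 35.9 ± 0.841 in untreated b1 (n = 3), a log2 fold change of 0.22 ± 0.11 (edgeR adjusted p = 0.178), and the labels do not say whether the induced transcript carries the counted 3′ end.

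One day 7 library stood apart. Library 17 of day 7 b2 had an SD of 0.202 for its log2 deviations from the group mean over 8209 genes, against 0.124 to 0.163 in the other libraries of replicated groups in the day 7 table, and 22 of its genes were more than 2-fold from the mean. Some members were also counted unequally in the tables, which share 7 b2 libraries. Over those libraries the day 3 and day 7 table held 0.903 to 1.06 times the UMIs of the day 7 table for 32 of the 36 members. It held 0.508 times for GPI, 0.446 times for RPE and 0.821 times for PYGL. ALDOA, the main aldolase, had 12 to 20 UMIs per shared library by the day 7 table and 1604 to 3572 by its counterpart, so its values from the day 7 table rest on few UMIs. In RefSeq, 8 members overlap another protein-coding gene: PFKM (SENP1), PFKFB2 (YOD1), PFKFB4 (UCN2), ALDOA (LOC112694756), TPI1 (SPSB2), SLC16A3 (CSNK1D), RPE (KANSL1L) and PYGB (ABHD12). No source used here says whether counting used the strand, so the counts of those members are uncertain, as are those of GAPDH, PGK1, PGAM1, TPI1, LDHA, LDHB, ENO1, ALDOA and PKM, which have close pseudogene copies, and of SLC2A3, which has the near-identical neighbour SLC2A14.

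The members' summed share of all UMIs gives how much of each library a pathway took. In day 7 b2 glycolysis took 1.51 ± 0.0937% of UMIs (SD, n = 4), and in untreated b2 it took 1.54 ± 0.0626% (n = 3). It took 2.46% in the single day 7 b1 library and 2.71 ± 0.150% in untreated b1 (n = 3). GAPDH alone, the glyceraldehyde 3-phosphate dehydrogenase, supplied 0.604% in day 7 b2, 0.607% in untreated b2, 1.03% in day 7 b1 and 1.03% in untreated b1. The glycolytic share was thus lower in every b2 library than in every b1 library of the same treatment, and day 7 and untreated libraries of b2 overlapped. Lactate genes took 0.172% in day 7 b2, 0.144% in untreated b2, 0.186% in day 7 b1 and 0.240% in untreated b1. Pentose phosphate genes ran the other way between batches, with 0.112% in day 7 b2, 0.114% in untreated b2, 0.0989% in day 7 b1 and 0.0973% in untreated b1. Glycogen genes were the smallest group at 0.0496% in day 7 b2, 0.0520% in untreated b2, 0.0518% in day 7 b1 and 0.0702% in untreated b1. The plot of shares by library shows these values with those of the day 3 and day 7 table, in which glycolysis took 1.88% in untreated, 2.04% in day 3 and 1.83% in day 7 libraries.

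**Figure D1:**
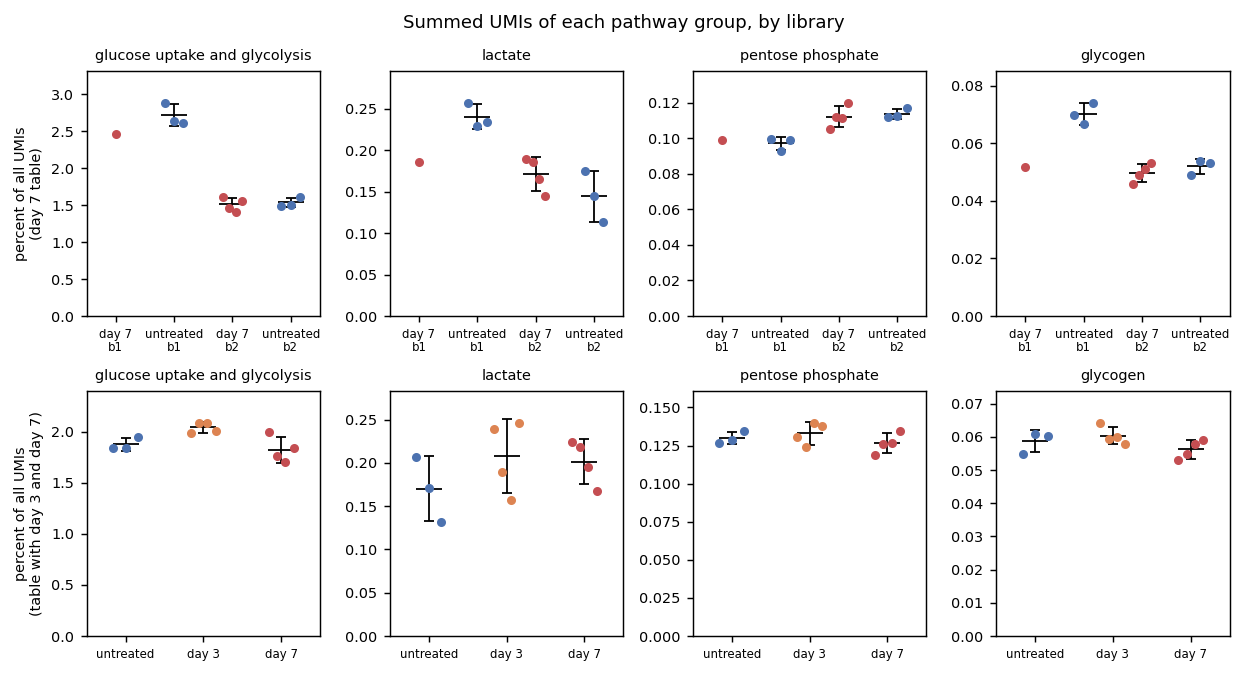
Percent of all UMIs (vertical axis) taken by the summed members of each pathway group, 1 point per library, in the day 7 table (top row) and the day 3 and day 7 table (bottom row); horizontal bars are means and whiskers SD. Glycolysis sits between 2.46 and 2.88% in b1 libraries and between 1.40 and 1.61% in b2 libraries, and the pentose phosphate share is higher in b2 than in b1.

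After 7 days of doxycycline, 9 of the 36 members were called against untreated cells, 3 higher and 6 lower, where 15.7% of all genes tested were called, 8.43% higher and 7.28% lower. Glucose transporter SLC2A1 and the bifunctional enzymes PFKFB3 and PFKFB4, which set the level of the phosphofructokinase activator fructose 2,6-bisphosphate, rose. SLC2A3, PFKL, ALDOC, TPI1 and PGK1 of glycolysis and the glycogen phosphorylase PYGL fell. By group, 8 of 20 glycolytic genes, 1 of 6 glycogen genes, 0 of 4 lactate genes and 0 of 6 pentose phosphate genes were called. In those last groups 0 and 1 had an unadjusted p under 0.05, where 3713 of all 12449 genes did. The lactate and pentose phosphate groups had 0 called genes under DESeq2 and limma-voom as well. The median log2 fold change was 0.01 over the members and -0.02 over all genes.

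Calls were also made within each batch. Within b2, 9 members were called at day 7 (SLC2A1, HK1, PFKFB3 and PFKFB4 higher, SLC2A3, PFKL, ALDOC, TPI1 and PGLS lower), where 15.7% of all genes were called, 7.74% higher and 7.94% lower. Within b1, with its single day 7 library, 6 were called (PGD higher, SLC2A3, PFKP, ALDOC, GBE1 and PYGL lower), where 7.51% of all genes were called, 3.85% higher and 3.66% lower. The b1 calls assume that the lone day 7 library varies like the libraries of the other groups, since it has no replicate of its own. By the b2 counts of the day 3 and day 7 table, day 7 against untreated gave 8 called members, the 9 of b2 without PGLS, where 15.6% of all genes were called, 8.27% higher and 7.31% lower. In either table all 4 day 7 b2 libraries lay above the 3 untreated b2 libraries for 6 members (SLC2A1, HK1, PFKFB3, PFKFB4, PKM and SLC16A3) and below for 5 (SLC2A3, PFKL, ALDOC, TPI1 and PGLS). Of genes with a mean of at least 10 UMIs, 12.4% lay above and 13.2% below in this way in the day 7 table, and 13.3% and 11.7% in the day 3 and day 7 table.

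ALDOC and SLC2A3 had the largest falls. ALDOC, the brain aldolase (chr17:28573115-28577264, minus strand of GRCh38), had 37.4, 31.7, 29.7 and 27.7 CPM in day 7 b2 and 51.9, 48.6 and 51.1 in untreated b2, with 50.2 in day 7 b1 and 112, 113 and 117 in untreated b1. Every day 7 library was below every untreated library of its batch, and the log2 fold change was -0.83 ± 0.10 (edgeR adjusted p = 5.83e-06), with -0.68 within b2 and -1.19 within b1. SLC2A3 encodes GLUT3, a high-affinity glucose transporter known from neurons (chr12:7919230-7936275, minus strand). It had 19.8, 19.0, 18.7 and 19.9 in day 7 b2 and 28.6, 29.3 and 33.5 in untreated b2, with 21.1 in day 7 b1 and 41.4, 43.7 and 42.4 in untreated b1, again without overlap. Its log2 fold change was -0.74 ± 0.11 (edgeR adjusted p = 4.43e-05), with -0.65 within b2 and -1.004 within b1.

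TPI1, the triose phosphate isomerase, and PFKL, the liver-type phosphofructokinase, work in the first stretch of glycolysis. TPI1 had 1578, 1307, 1318 and 1544 CPM in day 7 b2 and 2008, 1877 and 1958 in untreated b2, with 3028 in day 7 b1 and 3869, 3477 and 3525 in untreated b1, and its log2 fold change was -0.38 ± 0.07 (edgeR adjusted p = 0.000473). PFKL had 119, 99.7, 94.4 and 109 in day 7 b2 and 123, 135 and 147 in untreated b2, with 302 in day 7 b1 and 356, 342 and 357 in untreated b1, a log2 fold change of -0.31 ± 0.07 (edgeR adjusted p = 0.0062). For both genes the day 7 libraries lay below all untreated libraries of their batch. PGK1, which makes the first ATP of glycolysis, had 823, 669, 712 and 734 in day 7 b2 and 818, 818 and 837 in untreated b2, which overlapped, and 1406 in day 7 b1 against 1785, 1639 and 1753 in untreated b1. Its log2 fold change was -0.21 ± 0.06 (edgeR adjusted p = 0.0324), and the call was lost when any 1 of 9 of the 11 libraries was left out, with adjusted p of 0.0522 to 0.129, all but untreated b1 library 2 and day 7 b2 library 17.

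On the rising side, PFKFB4 had 19.8, 19.0, 20.6 and 19.9 CPM in day 7 b2 and 13.8, 13.5 and 13.0 in untreated b2, with 54.2 in day 7 b1 and 40.2, 49.1 and 40.4 in untreated b1. No day 7 library overlapped the untreated libraries of its batch, and the log2 fold change was 0.47 ± 0.11 (edgeR adjusted p = 0.00482). PFKFB3 had 66.3, 62.8, 60.7 and 62.5 in day 7 b2 and 45.2, 48.3 and 42.9 in untreated b2, with 99.6 in day 7 b1 inside the range of untreated b1 (104, 88.9 and 106). Its pooled log2 fold change was 0.32 ± 0.09 (edgeR adjusted p = 0.0231), against 0.46 within b2 and -0.01 within b1, and leaving out untreated b2 library 1, 2 or 4 ended the call, with adjusted p of 0.0581 to 0.0827. SLC2A1 encodes GLUT1, the transporter that most cells use for basal uptake (chr1:42925375-42959176, minus strand). It had 178, 204, 185 and 201 in day 7 b2 and 147, 152 and 163 in untreated b2, without overlap, while day 7 b1 with 261 lay among the untreated b1 libraries at 268, 254 and 264. The pooled log2 fold change was 0.22 ± 0.07 (edgeR adjusted p = 0.0425), with 0.32 within b2 and -0.01 within b1. Leaving out untreated b2 library 1, 2 or 4, untreated b1 library 2 or day 7 b2 library 18, 19 or 20 ended that call, with adjusted p of 0.0516 to 0.160. Scaling by library size alone also ended the calls of SLC2A1 and PFKFB3.

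**Figure D2:**
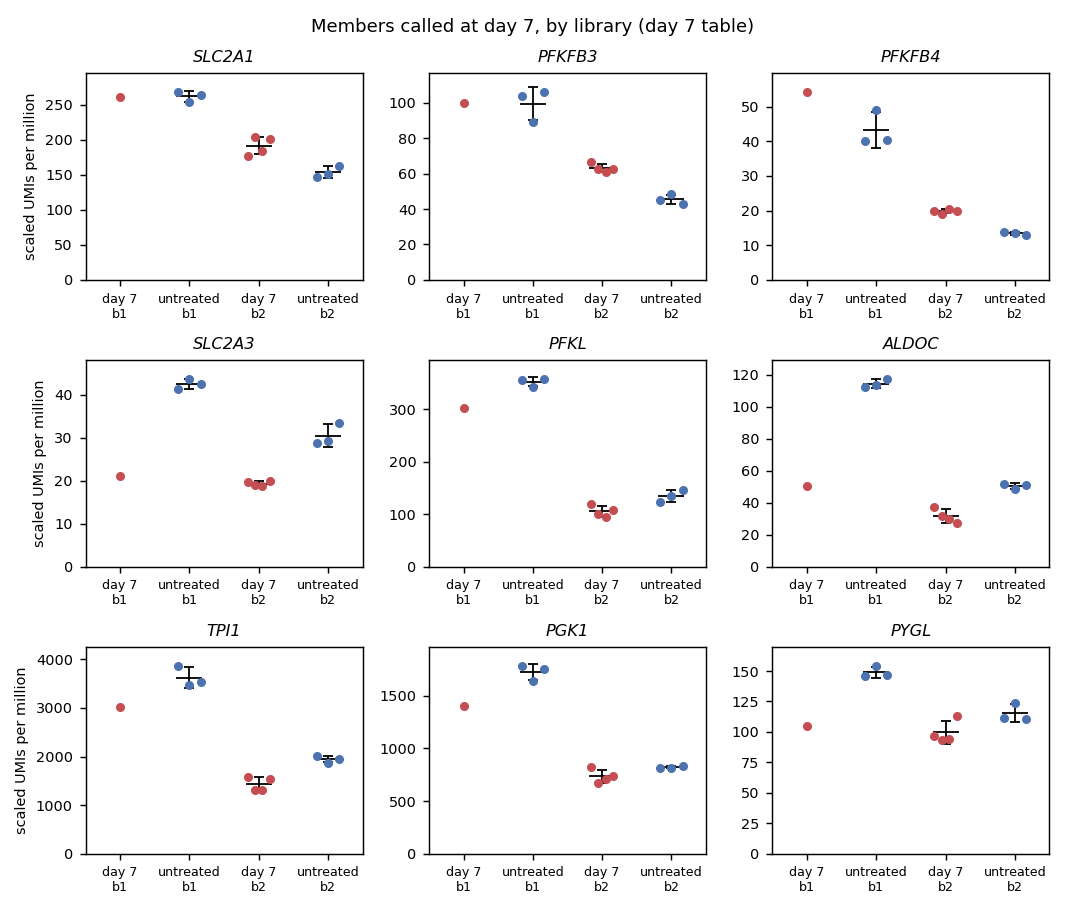
Scaled level in CPM (vertical axis) of the 9 members called at day 7, 1 point per library, in day 7 and untreated libraries of b1 and then of b2; bars are means and whiskers SD, and day 7 b1 is a single library. ALDOC, SLC2A3, PFKL and TPI1 are lower at day 7 in both batches, while SLC2A1 and PFKFB3 are higher at day 7 in b2 and at the untreated level in b1.

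PYGL, the liver-type glycogen phosphorylase, was the glycogen gene called. It had 97.1, 93.6, 94.4 and 113 CPM in day 7 b2 and 112, 124 and 111 in untreated b2, which overlapped, and 105 in day 7 b1 below 146, 154 and 147 in untreated b1. The log2 fold change was -0.30 ± 0.08 (edgeR adjusted p = 0.0125), and without the day 7 b1 library the adjusted p was 0.0925. The brain phosphorylase PYGB had a log2 fold change of -0.10 ± 0.08, glycogen synthase GYS1 0.08 ± 0.09, the branching enzyme GBE1 -0.18 ± 0.20, UGP2, which makes UDP-glucose, -0.01 ± 0.11, and phosphoglucomutase PGM1 -0.09 ± 0.08, and none of these 5 was called.

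GAPDH, ENO1 and PKM of the later steps of glycolysis were not called at day 7. GAPDH had 6362, 5982, 5461 and 6373 CPM in day 7 b2 and 5438, 5638 and 6554 in untreated b2, a pooled log2 fold change of 0.06 ± 0.07, with a 95% interval of -0.08 to 0.21. ENO1, the ubiquitous enolase, and PKM, the pyruvate kinase of most tissues, had log2 fold changes of 0.06 ± 0.07 and 0.20 ± 0.08. Hexokinase HK1, which traps glucose in the cell, had 0.13 pooled, 0.23 within b2 (called, edgeR adjusted p = 0.0317) and -0.10 within b1. Of the pentose phosphate genes, the dehydrogenase PGD had 0.21 pooled, 0.07 within b2 and 0.50 within b1, where it was called against its single day 7 library (edgeR adjusted p = 0.0107). The lactonase PGLS had -0.12 pooled, -0.30 within b2 (called, edgeR adjusted p = 0.0382) and 0.24 within b1. RPIA, RPE, TKT and TALDO1, the enzymes of the non-oxidative branch, had pooled values between -0.09 and 0.07.

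LDHA, LDHB and SLC16A3 varied widely between replicates. LDHA, the muscle-type subunit, had 1259, 1319.6, 1203 and 1077 CPM in day 7 b2 and 1247, 1084 and 772 in untreated b2, with 1106 in day 7 b1 and 1653, 1345 and 1366 in untreated b1. LDHB, the heart-type subunit, had 228, 163, 89.9 and 73.2 in day 7 b2 and 179, 87.5 and 38.9 in untreated b2, with 251 in day 7 b1 and 260.2, 244 and 264 in untreated b1. LDHB therefore spread widely within both b2 groups and narrowly within untreated b1, and its share of the LDHA and LDHB UMIs was 6.36 to 15.3% in day 7 b2, 4.80 to 12.6% in untreated b2, 18.5% in day 7 b1 and 13.6 to 16.2% in untreated b1. The lactate exporter SLC16A3 (MCT4) had 391, 249, 199.95 and 199.86 in day 7 b2 and 158, 114 and 174 in untreated b2, with 640.4 in day 7 b1 and 677, 639.6 and 623 in untreated b1. All 4 day 7 b2 libraries were above the untreated b2 libraries, yet the pooled log2 fold change of 0.56 ± 0.25 was not called (edgeR adjusted p = 0.185), with a 95% interval of -0.02 to 1.14. SLC16A1 (MCT1), which carries lactate in either direction, had a log2 fold change of -0.21 ± 0.12 and was not called either.

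At day 3 every called change among the members was a rise. Of the 36 members, 5 were called against untreated b2 cells, all higher, where 3.51% of all genes tested were called, 1.84% higher and 1.67% lower. The 5 were SLC2A1, PFKFB3, PFKFB4, GPI, the glucose 6-phosphate isomerase, and ENO2, the neuronal enolase. The untreated b2 libraries are also among the controls of the day 7 comparison. No member of the lactate, pentose phosphate or glycogen groups was called by edgeR, DESeq2 or limma-voom. Of the 6 glycogen genes 2 had an unadjusted p under 0.05, where 1746 of all 10586 genes did. The median log2 fold change was 0.20 over the glycolytic genes and 0.00 over all genes. In 13 of 36 members the 4 day 3 libraries all lay above the 3 untreated ones and in 1 (TPI1) all below, where 8.73% and 8.21% of genes with a mean of at least 10 UMIs did.

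From day 3 to day 7, 7 members were called and all were lower, where 5.07% of all genes were called, 2.76% higher and 2.31% lower. They were SLC2A3, GPI, PFKL, ALDOC, TPI1, PGK1 and ENO2, all of glycolysis, and the median log2 fold change of the glycolytic genes was -0.25. By edgeR, DESeq2 and limma-voom alike, 0 lactate, pentose phosphate and glycogen genes were called. Of these groups 0, 1 and 1 genes had an unadjusted p under 0.05, where 1944 of all 10586 genes did. In 11 of 36 members the 4 day 7 libraries all lay below the 4 day 3 ones and in 0 above, where 5.55% and 6.22% of genes with a mean of at least 10 UMIs did. Both contrasts use the day 3 libraries, so a high day 3 level enters both. Marker sums also moved with time. The astrocyte sum was 8308 to 9829 CPM in untreated, 9798 to 10918 in day 3 and 9427 to 11697 in day 7 libraries. The summed fibroblast level was 1231 to 1294 CPM in untreated, 1030.3 to 1075 in day 3 and 790.5 to 1016 in day 7 libraries. The neural stem cell sum was 123 to 131 in untreated, 119 to 124 in day 3 and 89.6 to 106 in day 7 libraries. The keratin sum, mostly KRT18, was 725 to 750 in untreated, 752 to 873 in day 3 and 661 to 698 in day 7 libraries. Its ranges did not overlap, with day 3 highest and day 7 lowest. For neuron markers, of which 3 had rows, the sum was 78.2 to 91.8 in untreated, 119.7 to 134 in day 3 and 107 to 169 in day 7 libraries, mostly from TUBB3, while SYT1 was down to 0. TUBB3 had no row in the day 7 table and MAP2 none here, so the neuron sums are of different genes. In the day 7 table that sum was lower in day 7 b2 than in untreated b2. Some markers were also counted unequally, PAX6 with 75.2 to 104 CPM in the day 7 table and 23.7 to 34.1 here, and THY1 with 35.9 to 280 and 477 to 630. The part of the markers in the day 3 and day 7 values was not tested.

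SLC2A1, GPI and ENO2 were among the members with their highest mean at day 3. SLC2A1 had 163, 163 and 176 CPM in untreated, 232, 242, 246 and 249 in day 3 and 196, 224, 207 and 210.0 in day 7 libraries. No group overlapped another, the day 3 log2 fold change was 0.54 ± 0.07 (edgeR adjusted p = 1.41e-05), and the step from day 3 to day 7 was -0.21 ± 0.07 and missed the threshold (edgeR adjusted p = 0.0527). GPI had 214, 186 and 188 in untreated, 271, 234, 250.4 and 241 in day 3 and 223, 183, 195 and 208 in day 7 libraries, with a log2 fold change of 0.34 ± 0.08 to day 3 (edgeR adjusted p = 0.0125) and a later one of -0.30 ± 0.07 (day 7 over day 3, edgeR adjusted p = 0.0131). ENO2 had 155, 176 and 163 in untreated, 201, 217, 204 and 224 in day 3 and 178, 156, 167 and 174 in day 7 libraries, with a log2 fold change of 0.36 ± 0.08 to day 3 (edgeR adjusted p = 0.00481) and a later one of -0.33 ± 0.07 (day 7 over day 3, edgeR adjusted p = 0.00358). For GPI and ENO2 the untreated and day 7 ranges overlapped. The rise of GPI was not called without untreated library 2 or 4 or day 3 library 9, that of ENO2 not without untreated library 1, and the fall of GPI not without day 3 library 9 or day 7 library 18.

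PFKFB4 and PFKFB3 were still above every untreated library at day 7. PFKFB4 had 17.3, 16.5 and 15.2 CPM in untreated, 27.0, 27.4, 30.6 and 30.4 in day 3 and 24.3, 22.2, 24.8 and 22.7 in day 7 libraries. The 3 groups did not overlap, and the day 3 log2 fold change of 0.82 ± 0.14 (edgeR adjusted p = 0.000727), 1.76-fold, was the largest of the called members. PFKFB3 had 54.4, 57.7 and 51.3 in untreated, 68.7, 69.5, 78.8 and 75.0 in day 3 and 78.2, 75.4, 72.8 and 74.3 in day 7 libraries, with day 3 and day 7 overlapping. Its day 3 log2 fold change was 0.41 ± 0.10 (edgeR adjusted p = 0.0111), a call lost without untreated library 4, and that from day 3 to day 7 was 0.04 ± 0.09.

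ALDOC, TPI1, PGK1, SLC2A3 and PFKL were lower at day 7 than at day 3 without a called change at day 3. ALDOC had 62.5, 59.5 and 63.1 CPM in untreated, 71.0, 74.6, 67.6 and 82.1 in day 3 and 45.1, 38.2, 36.5 and 32.8 in day 7 libraries. The day 3 libraries lay above all untreated ones, with a log2 fold change of 0.27 ± 0.11 that was not called (edgeR adjusted p = 0.173), and the fall from day 3 to day 7 was -0.96 ± 0.10 (edgeR adjusted p = 1.59e-07). PGK1 had 984, 979 and 991 in untreated, 1121, 1024, 1113 and 1131 in day 3 and 986, 789, 846 and 833 in day 7 libraries, with a log2 fold change of -0.35 ± 0.07 from day 3 to day 7 (edgeR adjusted p = 0.00126). TPI1 had 2423, 2250.0 and 2328 in untreated, 2082, 2148, 2116 and 2143 in day 3 and 1888, 1562, 1586 and 1774 in day 7 libraries, with a lower mean at each time, of which the log2 fold change -0.14 ± 0.07 to day 3 was not called and -0.32 ± 0.06 from day 3 to day 7 was (edgeR adjusted p = 0.00225). SLC2A3 had 31.8, 33.9 and 38.3 in untreated, 37.7, 28.5, 45.0 and 41.1 in day 3 and 21.1, 23.3, 21.4 and 22.1 in day 7 libraries, with -0.79 ± 0.13 from day 3 to day 7 (edgeR adjusted p = 0.00026). PFKL fell by the same contrast with -0.33 ± 0.08 (edgeR adjusted p = 0.012), a call lost without day 7 library 19.

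**Figure D3:**
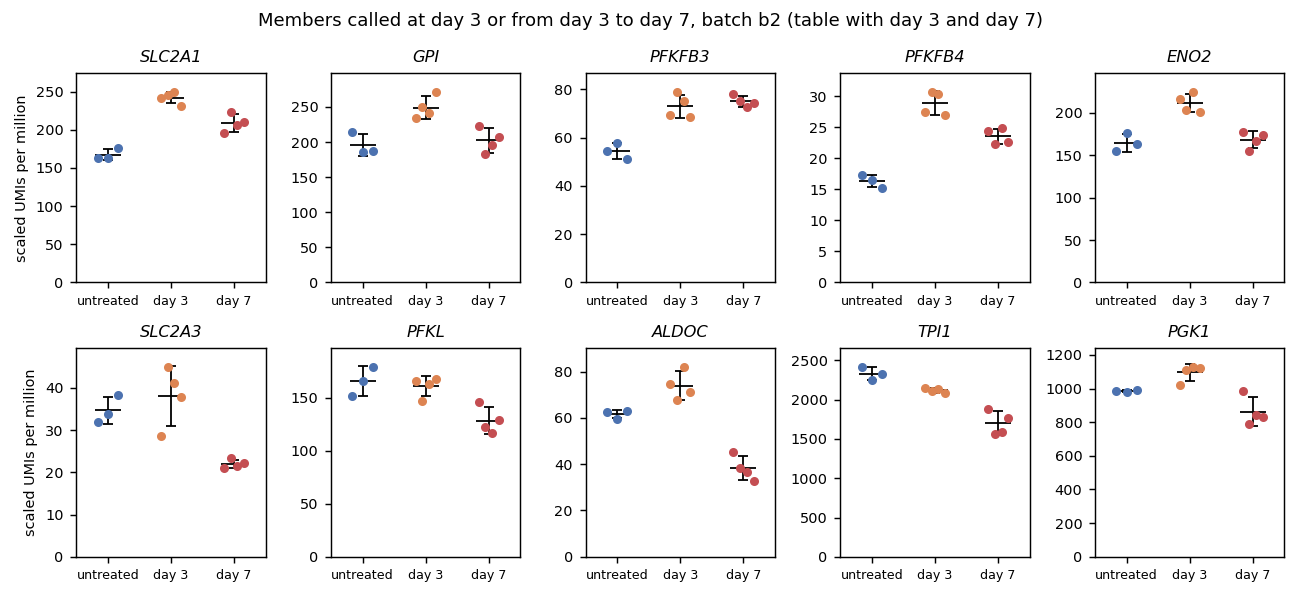
Scaled level in CPM (vertical axis) of the 10 members called at day 3 or between day 3 and day 7, in untreated, day 3 and day 7 libraries of b2, 1 point per library, with means and SD. SLC2A1, GPI, PFKFB4, ENO2, ALDOC, SLC2A3 and PGK1 have their highest mean at day 3. ALDOC, SLC2A3, PFKL, TPI1 and PGK1 have their lowest mean at day 7.

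How many members were called at day 3 depended on day 7 library 17, which shares the fit though not the contrast. Without it 9 members were called, with HK1, GAPDH, PKM and GYS1 added, and a fit on the untreated and day 3 libraries alone also called 9, again with those 4. GAPDH had 6632, 6837 and 7818 CPM in untreated, 8529, 7727, 7978 and 8632 in day 3 and 7619.8, 7153, 6585 and 7384 in day 7 libraries, with overlapping day 3 and untreated ranges, and the log2 fold change of 0.21 ± 0.07 was not called with all libraries (edgeR adjusted p = 0.108). GYS1 had 90.1, 107 and 111 in untreated, 131, 124, 117 and 132 in day 3 and 95.7, 109, 112 and 112 in day 7 libraries, with 0.29 ± 0.09 at day 3 (edgeR adjusted p = 0.0647). Without untreated library 4, 3 members were called.

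LDHB and SLC16A3 spread within groups in the day 3 and day 7 table too. LDHB had 222, 107 and 46.5 CPM in untreated, 315, 139, 78.4 and 60.8 in day 3 and 282, 197, 109 and 85.7 in day 7 libraries, a range that is several-fold in every group. Its day 3 log2 fold change was 0.17 ± 0.73 with a 95% interval of -1.50 to 1.85, so neither a rise nor a fall of over 2-fold is outside the interval. SLC16A3 had 197, 142 and 215 in untreated, 145, 273, 269.8 and 156 in day 3 and 482, 305, 247 and 236 in day 7 libraries, with day 7 library 17 highest. ALDOA, well counted in this table, had 829.9, 629.6 and 698 in untreated, 692, 584, 715 and 721 in day 3 and 1159, 593, 559 and 573 in day 7 libraries. Library 17 was again the high one and the other 3 day 7 libraries lay below the untreated range. The log2 fold changes of ALDOA were -0.08 ± 0.27 to day 3 and 0.09 ± 0.25 from day 3 to day 7, neither called.

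**Figure D4:**
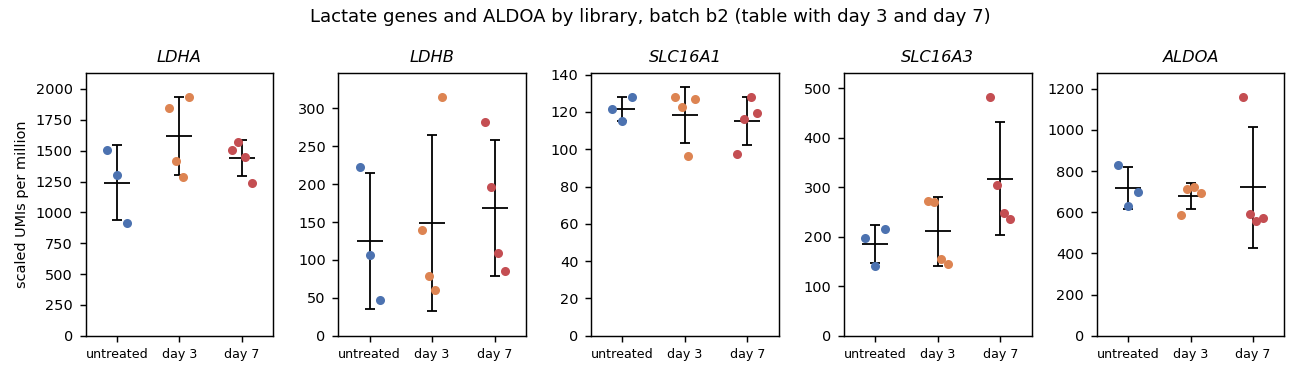
Scaled level in CPM (vertical axis) of the 4 lactate genes and ALDOA in untreated, day 3 and day 7 libraries of b2 (table with day 3 and day 7), 1 point per library, with means and SD. LDHB runs from 46.5 to 315 across libraries with all 3 groups overlapping, and 1 day 7 library, number 17, is highest for SLC16A3 and ALDOA.

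Promoter windows are printed for 4 of the 9 members called at day 7 against untreated cells. They are SLC2A1 and PFKFB4, called higher, and ALDOC and PGK1, called lower. Of the 9, only these 4 had all day 3 libraries above all untreated and all day 7 libraries in the day 3 and day 7 table. Glycolytic genes are known targets of the hypoxia-inducible factors, whose binding sites hold the letters ACGTG or GCGTG, read as CACGT or CACGC on the other strand. The windows run from 250 bases before to 50 after the transcription start of RefSeq's GRCh38.p14 annotation and are written 5′ to 3′ on the gene's strand, with matches to these letters on either strand in capitals. They lie at chr1:42958819-42959118, minus strand (SLC2A1), chr3:48556754-48557053, minus strand (PFKFB4), chr17:28576846-28577145, minus strand (ALDOC) and chrX:78103998-78104297, plus strand (PGK1).
SLC2A1: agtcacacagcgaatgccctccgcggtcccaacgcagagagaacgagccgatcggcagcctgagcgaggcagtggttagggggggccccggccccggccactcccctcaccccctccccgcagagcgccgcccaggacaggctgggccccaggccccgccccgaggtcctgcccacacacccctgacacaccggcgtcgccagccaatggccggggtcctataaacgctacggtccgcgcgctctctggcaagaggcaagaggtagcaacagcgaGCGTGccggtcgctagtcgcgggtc
PFKFB4: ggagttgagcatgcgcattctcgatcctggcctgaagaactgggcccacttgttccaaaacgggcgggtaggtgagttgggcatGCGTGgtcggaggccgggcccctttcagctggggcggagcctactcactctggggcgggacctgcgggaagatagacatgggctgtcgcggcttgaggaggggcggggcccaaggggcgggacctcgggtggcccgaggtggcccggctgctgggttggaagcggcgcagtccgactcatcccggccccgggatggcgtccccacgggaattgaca
ALDOC: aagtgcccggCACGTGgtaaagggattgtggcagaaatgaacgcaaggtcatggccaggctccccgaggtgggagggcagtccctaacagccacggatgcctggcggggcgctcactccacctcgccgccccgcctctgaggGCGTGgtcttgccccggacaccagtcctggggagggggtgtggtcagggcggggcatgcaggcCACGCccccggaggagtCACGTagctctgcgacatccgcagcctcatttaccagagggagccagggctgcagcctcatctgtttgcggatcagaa
PGK1: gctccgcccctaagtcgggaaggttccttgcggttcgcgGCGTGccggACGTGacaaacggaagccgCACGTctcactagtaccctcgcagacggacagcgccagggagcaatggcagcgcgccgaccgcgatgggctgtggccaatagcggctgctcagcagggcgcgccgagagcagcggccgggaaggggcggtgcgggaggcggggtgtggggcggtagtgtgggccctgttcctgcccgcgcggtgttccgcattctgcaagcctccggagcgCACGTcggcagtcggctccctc
A script found 1 match in SLC2A1, 1 in PFKFB4, 5 in ALDOC and 4 in PGK1, counting overlapping matches on both strands, so that CACGTG counts as a pair. Of 61 windows found for 33 members, 38 (62.3%) held either motif, where 48.4% of all 35116 windows of 300 bases in the table did. Of the other members called at day 7, PFKFB3 had 1 and 2 matches in its windows, TPI1 0 and 2, PFKL 1 and PYGL 0. All of these are matches of letters and not binding sites, and their part in the changes was not tested. SLC2A3, PFKFB2 and SLC16A1 had no window in the table used.

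Most members differed between untreated cells of the batches. Of the 36 members, 27 were called in untreated b2 against untreated b1, 25 lower and 2 higher, where 46.6% of all genes tested were called, 23.4% higher and 23.2% lower. Glycolysis made up most of it, with 18 of 20 genes lower in b2, all but ALDOA and PFKFB2, the members with the fewest UMIs in this table. Lactate genes split with 2 lower (SLC16A3, LDHA) and 1 higher (SLC16A1), the pentose phosphate genes with 1 lower (PGLS) and 1 higher (TKT), and 4 of 6 glycogen genes were lower. The median log2 fold change was -0.67 over the members, -0.90 over glycolysis, 0.05 over the pentose phosphate genes, -0.40 over the glycogen genes and 0.01 over all genes. In 26 of 36 members every untreated b2 library lay below every untreated b1 library and in 2 above, where 28.7% and 28.5% of genes with a mean of at least 10 UMIs did.

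SLC16A3 differed most. This exporter of lactate from glycolytic cells (chr17:82228397-82261129, plus strand) had 158, 114 and 174 CPM in untreated b2 and 677, 639.6 and 623 in untreated b1, a log2 fold change of -2.13 ± 0.29 (edgeR adjusted p = 0.000627), 4.39-fold lower. SLC16A1 ran the other way, with 113, 105 and 116 in untreated b2 and 62.2, 73.7 and 95.4 in untreated b1 and a log2 fold change of 0.52 ± 0.13 (edgeR adjusted p = 0.00223). The transporters of lactate thus differed in opposite directions between batches. LDHA had a log2 fold change of -0.49 ± 0.17 (edgeR adjusted p = 0.0366), a call lost without untreated b2 library 2, untreated b1 library 1 or 3, or day 7 b2 library 17 or 19, with adjusted p of 0.0524 to 0.114. LDHB had a larger one of -1.30 ± 0.58 that was not called (edgeR adjusted p = 0.106), and the untreated b2 libraries ranged from 38.9 to 179 CPM.

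Within glycolysis the step sizes varied between isoforms of 1 enzyme. PFKL had 123, 135 and 147 CPM in untreated b2 and 356, 342 and 357 in untreated b1 (log2 fold change -1.39 ± 0.09), while the muscle and platelet forms PFKM and PFKP had -0.48 ± 0.10 and -0.55 ± 0.08. For the enolases, ENO2 had 126, 144 and 134 in untreated b2 and 395, 344 and 381 in untreated b1 (-1.47 ± 0.08), and ENO1 had -0.90 ± 0.09. The GLUT transporters SLC2A1 and SLC2A3 had -0.77 ± 0.08 and -0.49 ± 0.12, and the hexokinases HK1 and HK2 had -0.58 ± 0.08 and -0.97 ± 0.19. PFKFB4 had 13.8, 13.5 and 13.0 in untreated b2 and 40.2, 49.1 and 40.4 in untreated b1, a log2 fold change of -1.67 ± 0.14, and PFKFB3 had -1.13 ± 0.10. All of these were called lower in b2, with edgeR adjusted p of 0.00116 at most, and the differences between isoforms were not tested.

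The other glycolytic enzymes were lower in b2 apart from ALDOA and PFKFB2. GAPDH had 5438, 5638 and 6554 CPM in untreated b2 and 11534, 10033 and 9774 in untreated b1 (log2 fold change -0.83 ± 0.08, edgeR adjusted p = 1.15e-08), so every b2 library was below every b1 library. ALDOC (-1.18 ± 0.10), PGK1 (-1.07 ± 0.08), PGAM1 (-1.05 ± 0.09), PKM (-0.97 ± 0.10), TPI1 (-0.90 ± 0.08) and GPI (-0.74 ± 0.07) were likewise called lower. In glycogen metabolism PGM1 had 99.8, 108 and 113 in untreated b2 and 249, 224 and 238 in untreated b1 (-1.15 ± 0.09). GBE1, PYGL and GYS1 had -0.78 ± 0.15, -0.36 ± 0.09 and -0.45 ± 0.11, while UGP2 and PYGB, with -0.05 ± 0.11 and 0.09 ± 0.09, were not called. TKT, the transketolase that links the pentose phosphate pathway back to glycolysis, had 521, 467 and 546 in untreated b2 and 327, 326 and 363 in untreated b1 and was called higher in b2 (0.59 ± 0.08, edgeR adjusted p = 2.13e-06). What separated the batches (culture, extraction, amplification or sequencing) is not in the labels and cannot be told apart.

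**Figure D5:**
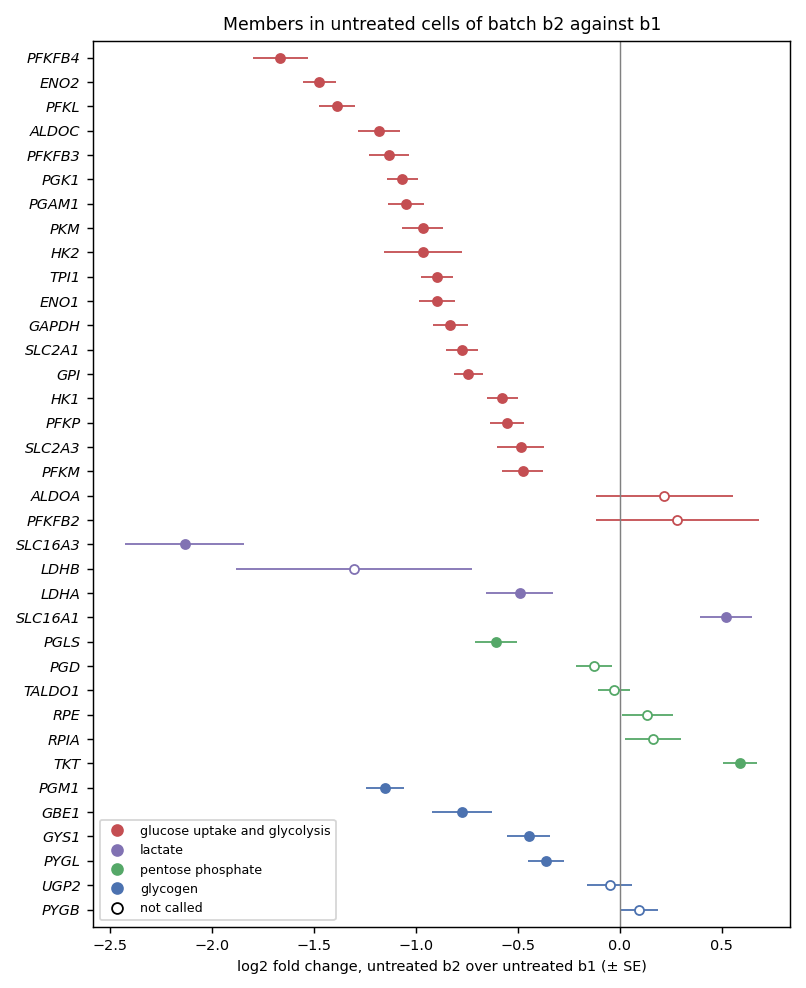
Log2 fold change of untreated b2 over untreated b1 with SE (horizontal axis) for the 36 members, ordered within each pathway group; filled points were called and open points were not. The glycolytic genes lie between -1.67 and -0.48 except ALDOA and PFKFB2, SLC16A3 is lowest at -2.13, and TKT and SLC16A1 are higher in b2.

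The groups fill the batches unevenly, since b1 holds 1 of the 5 day 7 libraries and 3 of the 6 untreated ones. Without the batch term 2 members were called, ALDOC and SLC2A3, and the log2 fold changes of SLC2A1, PFKFB3 and PFKFB4 had the opposite sign, at -0.018, -0.048 and -0.10. The within-batch values of PFKFB4 were 0.56 ± 0.14 in b2 (edgeR adjusted p = 0.00541) and 0.34 ± 0.17 in b1, which was not called.

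Whether the day 7 response differed between batches was tested as an interaction. Of the 36 members 2 were called, both higher in b2, where 2.64% of all genes were, 1.52% higher and 1.12% lower, and limma-voom called 0. PFKP had 513, 424, 385 and 441 CPM in day 7 b2 and 419, 388 and 389.7 in untreated b2, with 445 in day 7 b1 and 592, 574 and 591 in untreated b1. Its day 7 effect in b2 minus that in b1 was 0.54 ± 0.14 on the log2 scale (edgeR adjusted p = 0.0406). GBE1 had 28.9, 29.7, 37.5 and 27.7 in day 7 b2 and 29.9, 27.5 and 28.5 in untreated b2, with 23.5 in day 7 b1 and 38.2, 48.3 and 59.7 in untreated b1, a difference of 1.18 ± 0.28 (edgeR adjusted p = 0.0238). Both rest on the single day 7 b1 library, which lay below all untreated b1 libraries for both genes. PFKP lost its call without any 1 of 6 libraries (untreated b2 2 or 4, untreated b1 1, 2 or 3, day 7 b2 20) and GBE1 without any 1 of 4 (untreated b2 2 or 4, untreated b1 2 or 3). For SLC2A1 and PFKFB3 the difference was 0.33 ± 0.13 and 0.47 ± 0.17 and was not called (edgeR adjusted p = 0.198 and 0.128).

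Among further genes of these pathways, listed beside the 36 members, 36 were tested in the day 7 table and 6 were called at day 7 (16.7%), 4 higher and 2 lower, close to the 15.7% of all genes. SLC2A6, a lysosomal sugar transporter, PGAM5, a mitochondrial phosphatase named for its likeness to PGAM, G6PC3, a ubiquitous glucose 6-phosphatase, and GSK3A, a kinase of glycogen synthase, rose, with log2 fold changes of 0.37, 0.36, 0.40 and 0.24. Among those that fell was PRPS2, which makes phosphoribosyl pyrophosphate from ribose 5-phosphate, with -0.68. Of 31 such genes tested at day 3, 1 was called, PRPS2, lower (-0.68, edgeR adjusted p = 0.0235), a share of 3.23% where 3.51% of all genes were called. Between day 3 and day 7, edgeR called 0 of these 31, where 5.07% of all genes were called. An unadjusted p under 0.05 was found for 5 of them, and for 1944 of all 10586 genes. Between the untreated batches 16 of the 36 were called (44.4%), 4 higher and 12 lower, where 46.6% of all genes were. Among the lower was BSG, the chaperone of the lactate transporters, with -0.74.

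Of 12 regulators tested, 3 were called at day 7, where 15.7% of all genes were. TXNIP, a glucose-induced inhibitor of glucose uptake, fell, with 77.9 ± 5.39 CPM in day 7 b2 and 178 ± 23.9 in untreated b2, and 43.4 in day 7 b1 and 114 ± 8.32 in untreated b1 (log2 fold change -1.23 ± 0.09, edgeR adjusted p = 8.78e-10), with -1.19 within b2 and -1.39 within b1. It also fell at day 3 (-0.58, edgeR adjusted p = 0.00363) and further from day 3 to day 7 (-0.60, edgeR adjusted p = 0.00153). EPAS1, which encodes HIF-2α, rose, with 127 ± 8.13 in day 7 b2 and 86.5 ± 2.06 in untreated b2, and 111 in day 7 b1 and 52.8 ± 2.49 in untreated b1 (0.70 ± 0.09, edgeR adjusted p = 6.01e-06), with 0.55 within b2 and 1.06 within b1. PDK1, a kinase that inhibits pyruvate dehydrogenase, was lower (-0.64 ± 0.19, edgeR adjusted p = 0.0337), with -0.38 within b2, where it was not called, and -1.54 within b1. HIF1A was not called at day 7 in the pooled fit (-0.23) and was higher in untreated b2 than in untreated b1 (0.48, edgeR adjusted p = 0.000196). It had 234 ± 23.7 CPM in day 7 b2 and 257 ± 22.5 in untreated b2. In b1 the single day 7 library, at 129, lay below all untreated libraries (183 ± 20.4). MYC was not called in the pooled fit but was called higher within b2, with 132 ± 5.68 in day 7 b2 and 106 ± 2.85 in untreated b2. In b1 it had 118 at day 7 and 122 ± 3.58 in untreated libraries.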

How the data were processed

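Per the submitters' processing notes, reads were handled with bcl2fastq and cutadapt, aligned with STAR 2.4.2a to hg38 and counted with HTSeq, and the notes also name DESeq2. The authors deposited UMI counts, whole numbers per gene and library, in a day 7 table (15230 genes, 11 libraries) and a day 3 and day 7 table (12575 genes, 11 b2 libraries), and the highest count of every listed gene was at least 6. A further 55 columns of per-sample values were not used. In the second table, 2 untreated columns carry names shared by b1 and b2 libraries and were taken as b2, the batch of the rest of that table. Their GAPDH UMIs, 22298 and 30696, were near those of untreated b2 libraries 1 and 2 in the day 7 table (22401 and 30943). Untreated b1 libraries 1 and 2 had 47068 and 25744.

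Counts were fitted as deposited with edgeR 4.0.16 in R 4.3.3 (filterByExpr, TMM, robust quasi-likelihood, Benjamini-Hochberg over all genes tested), 1 fit per table, with batch as a term for day 7 against untreated and separate groups otherwise. DESeq2 1.42.0 and limma 3.58.1 were alternatives, with other scalings, filters, sample sets and each library left out. The edgeR step was tested on simulated data, with the same spread for all genes and no batch difference beyond planted changes. That test cannot speak for genes as variable as LDHB or for the batch differences of these data. Shares are percents of each library's UMIs. All 36 members are named. Some further genes of these pathways entered the counts and are not reported here by name. The members and lists were chosen with earlier results of these data known. No pair of replicates agreed within sampling noise: chi-square per degree of freedom was 1.54 to 6.40 over 27 pairs. Gene positions are from GENCODE release 29 and figures were drawn with matplotlib 3.10.9.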

Additional observations from a re-analysis of the deposited data

Results flagged for a closer look

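Groups of 4 libraries were checked for a library far from the rest. Day 7 b2 was checked in both tables, so the combinations are not independent. In 5 of 108 member and group combinations with 4 libraries, 1 library was far from the other 3 (gap over range above 0.829), and chance alone gives about 1 in 20. Of these, 3 involved day 7 b2 library 17, with RPE at 38.5 CPM against 45.7 to 46.8 in the other 3 libraries, UGP2 at 51.9 against 64.0 to 66.1, and ALDOA at 1159 against 559 to 593 in the day 3 and day 7 table. The others involved day 3 library 10, with PGK1 at 1024 against 1113 to 1131 and PYGL at 118 against 101 to 103.

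The day 7 effect differed between batches for PFKP, by 0.54 on the log2 scale (b2 minus b1), and for GBE1, by 1.18. The b1 side of both differences is 1 library, and both calls were lost under limma-voom.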

How the results depend on the processing

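Over member results and alternatives, 3037 were counted as unchanged, 58 lost a call, 26 gained one and 3 reversed. Direction was compared only where the main fit or the alternative made a call. Results that neither called were counted as unchanged whatever their sign, as were called genes left without an adjusted p. The 3 reversed without the batch term at day 7 (SLC2A1 -0.018, PFKFB3 -0.048, PFKFB4 -0.10), where 316 genes and 2 members were called. At day 3, a fit on the 2 groups alone called 552 genes and 9 members, and leaving out 1 library gave 191 to 578 genes and 3 to 9 members. For the interaction, limma-voom called 210 genes and 0 members, and leaving out 1 library gave 197 to 684 genes and 0 to 4 members; it cannot be fitted without the day 7 b1 library. Leaving out 1 library gave 1405 to 1970 genes and 6 to 9 members at day 7. It gave 387 to 645 genes and 6 to 9 members from day 3 to day 7. Between untreated batches it gave 5049 to 6189 genes and 26 to 28 members. The cause was not tested. Scaling by library size alone turned the split of higher to lower calls at day 7 to 667 and 1429 (1049 and 906 with TMM), at day 3 to 129 and 240 (195 and 177) and in the interaction to 280 and 100 (189 and 140); it called GPI lower at day 7. In the b2 libraries alone, HK1 gained and PGK1 and PYGL lost their day 7 call.

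In the other table, shares were higher: glycolysis 1.83% in day 7 b2 and 1.88% in untreated b2, lactate 0.201% in day 7 b2, pentose phosphate 0.127% and 0.130%, and glycogen 0.0562% and 0.0587%, with fewer genes listed.

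With the shared numbers of untreated b1 and b2 as a replicate block, 5147 genes and 27 members were called. The labels do not say that the numbers pair libraries, and same-numbered libraries' deviations had r of 0.0064 and 0.0073. Depth limits PFKFB2, and ALDOA in the day 7 table.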

Other observations

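LDHB had the 5th largest spread about group means among 6274 genes with at least 20 CPM in the day 3 and day 7 table (SD 0.87 on the log2 scale), while SLC2A1 ranked 6044th (0.057). Of the other members, SLC16A3 ranked 50th (0.40), ALDOA 123rd (0.30) and LDHA 301st (0.24). Among genes of other functions, 3 had deviations that ran closely with those of LDHB across the 11 libraries: COX7A2 (Pearson r = 0.990), PPIH (0.986) and RPS24 (0.985), picked after their values were seen as the highest of all genes compared. These r describe the same 11 libraries and carry no test. RPS24 had 530, 291, 134 and 129 CPM in day 7 b2 libraries 17 to 20 and 417, 213 and 61.8 in untreated b2 libraries 1, 2 and 4. It had the 2nd largest spread of all, and the order of the libraries within each group was the same for RPS24, COX7A2 and LDHB. DCTN6 (0.979) ranked 4th in spread.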
